A study of Mus musculus with 30 samples.

Results

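The genes described here are the 9 globin genes Hba-a1, Hba-a2, Hba-x, Hbq1a, Hbq1b, Hbb-bs, Hbb-bt, Hbb-bh1 and Hbb-y of the mouse alpha and beta clusters, found by symbol among the 54532 genes of the count table. RNA was sequenced from murine erythroleukemia (MEL) cells, a leukemic red cell precursor line that starts to make hemoglobin in DMSO. The 30 libraries are 5 each of WT and Abcb10-null cells before DMSO (day 0) and at days 2 and 5 of culture with 1.5% DMSO. The study used the DS19 line of MEL cells; whether the WT libraries came from untransduced or control-transduced cells is not given in the sources used here. The Abcb10-null cells were a single CRISPR/Cas9 clone cut in exon 1 of Abcb10, which encodes a mitochondrial inner membrane transporter, so genotype and clone cannot be told apart. The titles call the 5 libraries of a group biological replicates. All libraries were made from RNA that had gone through a globin removal kit, so each value below is what was left, and how evenly the kit worked across libraries was not tested.

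Hemoglobin is a tetramer of alpha-type and beta-type chains, each holding a heme. In mice the alpha cluster holds the embryonic gene Hba-x (zeta), the adult genes Hba-a1 and Hba-a2, and the theta genes Hbq1a and Hbq1b, whose products are not known parts of the main hemoglobins. The beta cluster holds the embryonic genes Hbb-y and Hbb-bh1 and the adult genes Hbb-bs and Hbb-bt. Upstream enhancers and the factors GATA1, KLF1, TAL1 and NFE2 drive both clusters late in red cell maturation, and BCL11A and SOX6 are known to keep the embryonic beta-type genes silent.

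On GRCm38 the alpha cluster genes lie on the plus strand of chromosome 11, from Hba-x at chr11:32276400-32278116 through Hba-a1 at chr11:32283511-32284465, Hbq1b at chr11:32286965-32287784 and Hba-a2 at chr11:32296489-32297298 to Hbq1a at chr11:32300069-32300873. The beta cluster genes lie on the minus strand of chromosome 7, with Hbb-y at chr7:103851749-103853216, Hbb-bh1 at chr7:103841637-103843164, Hbb-bs at chr7:103826534-103828096 and Hbb-bt at chr7:103812524-103813996. All 9 are protein coding in the annotation, and none shared exon bases with another gene. The adult genes come in near copies, which limits how far reads can be assigned to 1 of them. The coding sequences of Hba-a1 and Hba-a2 differed at 1 of 429 bases, and those of Hbb-bs and Hbb-bt at 1 of 444. The 60 coding bases that end at each difference are shown to let this be seen, 5′ to 3′ from the annotated transcripts, with the differing base in capitals.
Hba-a1, coding bases 322 to 381: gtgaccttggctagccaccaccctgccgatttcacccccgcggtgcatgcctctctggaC
Hba-a2, coding bases 322 to 381: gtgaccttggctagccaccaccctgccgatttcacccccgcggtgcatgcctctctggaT
Hbb-bs, coding bases 358 to 417: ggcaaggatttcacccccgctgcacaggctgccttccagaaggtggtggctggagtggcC
Hbb-bt, coding bases 358 to 417: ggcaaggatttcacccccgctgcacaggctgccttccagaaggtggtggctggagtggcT

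A read of 51 bases, the length sequenced from each end, would match 1 gene alone over 32.7% of the start positions in the Hba-a1 transcript and 13.3% in Hba-a2. The share was 34.3% for Hbb-bs, 41.8% for Hbb-bt, 63.5% for Hbq1a and 60.5% for Hbq1b. It was 100% for Hba-x, Hbb-bh1 and Hbb-y. The stretches that set the adult beta genes apart lie at both transcript ends, and of the 212 windows that set Hba-a1 apart, 161 reach its 5′ UTR. Those 161 start in bases that are counted further below as upstream of the RefSeq start of Hba-a1. A count on Hbb-bs, Hbb-bt or Hba-a1 therefore rests on part of its transcript or on how reads with several matches were handled, which is not given in the sources used here. MEL cells came from DBA/2 mice, which carry another beta-globin haplotype than the strain of the reference genome, so which gene of the cells each of the Hbb-bs and Hbb-bt counts stands for was not tested.

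**Figure D1:**
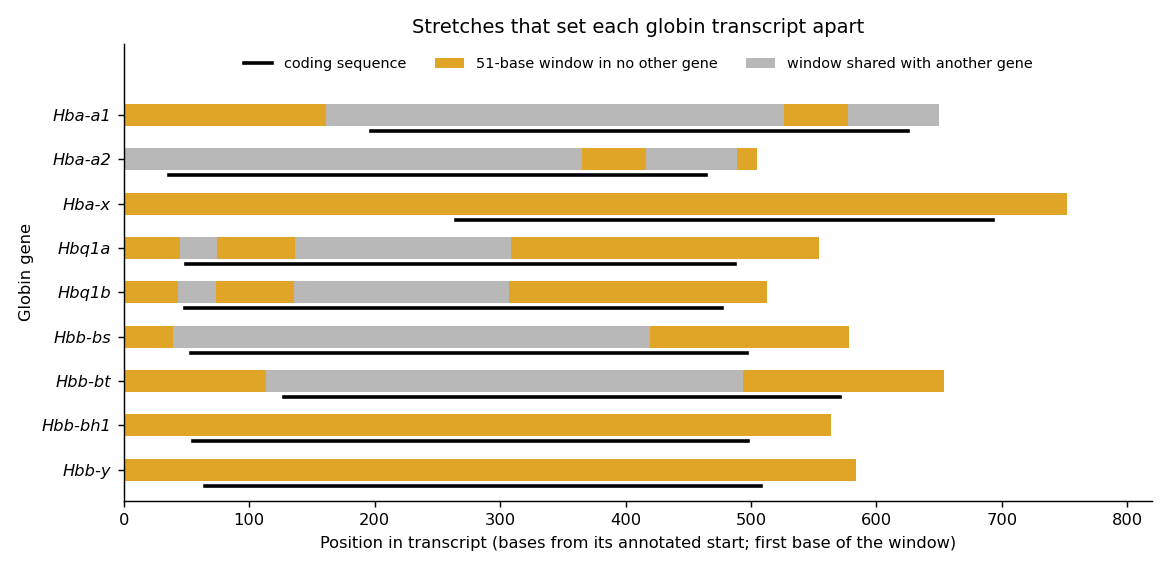
Start positions of 51-base windows along the annotated transcript of each of the 9 globin genes, in bases from the transcript start, with windows found in no other gene in yellow, windows shared with another gene in grey and the coding sequence as a black line. Most of the Hba-a2 bar is grey (13.3% unique), both ends of the Hbb-bs and Hbb-bt bars are yellow, and the bars of Hba-x, Hbb-bh1 and Hbb-y are yellow throughout.

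Upstream of their starts, the copies were alike to different degrees over 250 bases (RefSeq, GRCm38.p6; Hbb-bh1 had no entry in the table used). Identity in a global alignment was 97.6% between Hba-a1 and Hba-a2, 95.6% between Hbq1a and Hbq1b, and 69.3% between Hbb-bs and Hbb-bt. The upstream stretches of the theta genes, at chr11:32299819-32300068 for Hbq1a and chr11:32286714-32286963 for Hbq1b on the plus strand, are printed because the levels of these 2 genes differed although their upstream bases hardly did. The capitals mark the 11 of 250 bases at which they differ.
Hbq1a: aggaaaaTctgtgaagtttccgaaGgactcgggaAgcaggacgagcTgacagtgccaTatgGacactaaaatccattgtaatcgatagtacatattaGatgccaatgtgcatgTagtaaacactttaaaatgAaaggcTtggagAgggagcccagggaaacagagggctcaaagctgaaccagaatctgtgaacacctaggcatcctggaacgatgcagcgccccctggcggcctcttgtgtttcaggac
Hbq1b: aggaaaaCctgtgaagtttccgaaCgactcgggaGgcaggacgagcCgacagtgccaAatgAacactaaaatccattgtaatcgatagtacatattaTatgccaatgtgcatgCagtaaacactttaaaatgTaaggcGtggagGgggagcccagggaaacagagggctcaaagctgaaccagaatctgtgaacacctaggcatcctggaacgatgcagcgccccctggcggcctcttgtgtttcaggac

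Letters known from erythroid promoters were searched on both strands of the 250 bases. CACCC is the core of KLF1 sites, and the letters GATAA are the core of GATA1 sites. TGACTCA is a site of NFE2. The common promoter letters CCAAT were searched as well, and so was ATATAA, a form of the TATA box. CACCC was present in 52.0% of all 32851 promoters of the table, CCAAT in 33.8%, GATAA in 22.6%, ATATAA in 9.10% and TGACTCA in 4.46%. Hbb-bt held 3 CACCC, 3 CCAAT, 1 GATAA and 1 ATATAA, with 2 of its CCAAT matches back to back on opposite strands. Hbb-bs held 1 of each of these 4. Hba-a1 and Hba-a2 both held 2 CACCC matches and 1 match to each of the other letters but TGACTCA. Neither theta gene held CACCC or GATAA, both held 1 CCAAT, and Hbq1b held 1 ATATAA, on the minus strand. That match lay at position -156 from the start, while those of the adult genes lay at -31 to -28. TGACTCA was in none of the 8 promoters.

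Library totals ranged from 9906783 to 20157768 counts. Levels are given as CPM, counts scaled to a common library size after adjustment by TMM, and a count of 3, taken as the floor, was worth 0.149 to 0.311 CPM. At day 5, 5 libraries stood apart with over 25000 genes detected by at least 1 count: WT replicates 2, 3 and 4 with 25916, 29986 and 26299, and Abcb10-null replicates 4 and 5 with 36511 and 27675, against 17472 to 24091 in the 20 libraries of days 0 and 2. Abcb10-null replicate 4 also had the lowest total. Abcb10 itself averaged 119 ± 5.65, 567 ± 87.5 and 1223 ± 45.6 CPM (SD, n = 5) in WT at days 0, 2 and 5 and 74.3 ± 4.82, 202 ± 62.2 and 212 ± 30.2 in Abcb10-null cells. At day 0 the summed level of 10 erythroid markers was 2245 to 2561 CPM in the WT libraries and 2241 to 2673 in the Abcb10-null ones, and 12128 to 23906 against 6198 to 8003 at day 5. The marker lists of granulocytes and macrophages, of mast cells and of lymphoid cells summed to at most 13.9, 2.71 and 4.05 CPM respectively in any library. Of 5 megakaryocyte markers, 3 or 4 averaged at least 1 CPM in every group (summed 154 to 604 CPM).

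The 9 globin genes together took a small share of each library, which rose with days in DMSO and was lower in the Abcb10-null cells at each day. In WT the share averaged 0.00539% ± 0.000501 of the counts at day 0, 0.0218% ± 0.00409 at day 2 and 0.259% ± 0.0615 at day 5 (SD, n = 5). In Abcb10-null cells it averaged 0.00108% ± 0.000268, 0.00471% ± 0.00140 and 0.0493% ± 0.0177. The 5 libraries of 1 genotype did not overlap those of the other at any day, nor did successive days within a genotype. Each of these 7 differences had p = 0.00794 in an exact two-sided permutation test, the smallest that 5 against 5 allows, and the same value after Benjamini-Hochberg adjustment.

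Hbb-bs and Hbb-bt held most of these counts. Hbb-bs took 45.5% of the globin counts in WT at day 0, 70.7% at day 2 and 83.2% at day 5, and 44.5%, 67.8% and 81.6% in Abcb10-null cells. Hbb-bt took 48.9%, 14.3% and 9.13% in WT and 51.3%, 16.7% and 7.79% in Abcb10-null cells. Per kb of exon, Hbb-bs was the highest of the 9 at day 5 in WT, at 2764 ± 647 CPM per kb. It was followed by Hbb-bt at 333 ± 129, Hba-a1 at 167 ± 38.9, Hbq1b at 73.3 ± 14 and Hbq1a at 12.8 ± 2.08 CPM per kb (SD, n = 5). Because the kit removed adult globin RNA and because reads shared by the copies may not have been counted, this order is that of the counts left and not that of the cells' transcripts.

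Between genotypes, Hbb-bs, Hbb-bt, Hba-a1 and Hbq1b were lower in Abcb10-null cells at all 3 days, and Hbq1a was lower at day 5. At day 0, before DMSO, 4 of the 9 genes passed the filter on low counts and all 4 were called lower (edgeR, adjusted p under 0.05), where 16.2% of all 12912 genes tested were called lower. In all 4 the Abcb10-null libraries lay below every WT library, as in 9.15% of all genes. Of these, Hba-a1 and Hbq1b passed the filter through the WT libraries only, so only Hbb-bs and Hbb-bt were free to go either way. At day 2 all 4 tested were lower (16.9% of all genes) without overlap (8.11%), and each passed the filter in both genotypes. At day 5 all 5 tested were lower (17.8% of all genes) without overlap (10.4%), Hbq1a having passed through WT only, and all 5 were also called lower when the 5 libraries with over 25000 genes were left out together. The median log2 fold change of the tested globin genes was -2.36, -2.03 and -2.35 at days 0, 2 and 5, against -0.0019, -0.0022 and -0.016 over all genes tested. In bulk RNA, fewer cells that make globin and less globin RNA per cell cannot be told apart.

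Hbb-bs, an adult beta-globin gene, was at 28.9, 26.1, 26.7, 26.6 and 21.5 CPM in the WT libraries 1 to 5 at day 0, and at 6.93, 5.01, 5.34, 4.48 and 2.71 CPM in the Abcb10-null libraries. The highest Abcb10-null library was thus well below the lowest of WT. The fitted level was 5.31-fold lower in Abcb10-null cells (log2 fold change -2.41, SE 0.17, adjusted p = 2.36e-09). At day 2 Hbb-bs was at 119, 119, 144, 179 and 140.4 CPM in WT and at 26.2, 25.9, 58.2, 31.3 and 18.9 CPM in Abcb10-null cells. Abcb10-null replicate 3 was the highest of its group but still below every WT library. The difference was 4.52-fold (log2 fold change -2.18, SE 0.25, adjusted p = 0.000364). At day 5 it was at 2629.6, 2104, 2205, 2368 and 1308 CPM in WT and at 633, 318, 268, 486 and 398 CPM in Abcb10-null cells, again without overlap. The difference was 5.09-fold (log2 fold change -2.35, SE 0.24, adjusted p = 2.04e-05). The 3 genotype differences had overlapping intervals, and the 95% interval of the day 5 one was -2.87 to -1.83.

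Hbb-bt, the other adult beta-globin gene, was at 27.8, 29.9, 33.5, 21.6 and 25.8 CPM in WT and at 5.98, 7.22, 3.45, 7.69 and 4.10 CPM in Abcb10-null cells at day 0. It was 4.91-fold lower in Abcb10-null cells (log2 fold change -2.29, SE 0.18, adjusted p = 9.55e-09), with no overlap. At day 2 it was at 19.6, 17, 21.4, 42.9 and 39.3 CPM in WT and at 7.36, 6.74, 5.56, 7.18 and 12.4 CPM in Abcb10-null cells. WT fell into 3 lower and 2 higher libraries, all of them above the highest Abcb10-null library. The difference was 3.68-fold (log2 fold change -1.88, SE 0.29, adjusted p = 0.00210). At day 5 it was at 333, 205, 248, 289 and 96.1 CPM in WT and at 72.7, 29.6, 18.8, 36.8 and 40.2 CPM in Abcb10-null cells. WT replicate 5 came closest to the Abcb10-null libraries without reaching them, and the difference was 5.97-fold (log2 fold change -2.58, SE 0.36, adjusted p = 0.000185).

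Hba-a1 held nearly all adult alpha-globin counts. It was at 2.66, 1.24, 1.17, 1.67 and 1.06 CPM in WT at day 0, and at 0.106, 0.150, 0.0557, 0.256 and 0.256 CPM in Abcb10-null cells, which is 1 to 5 counts per library. The fitted difference of 9.25-fold (log2 fold change -3.21, SE 0.43, adjusted p = 1.42e-05) thus rests on 15 counts in the Abcb10-null group. At day 2 it was at 12.5, 14.5, 18.5, 22.1 and 14.3 CPM in WT and at 3.11, 2.92, 4.19, 1.58 and 2.54 CPM in Abcb10-null cells. No Abcb10-null library came near WT, and the difference was 5.87-fold (log2 fold change -2.55, SE 0.26, adjusted p = 0.000143). At day 5 it was at 165, 104, 149, 159.6 and 98.6 CPM in WT and at 58.8, 20, 21.9, 42.7 and 27.8 CPM in Abcb10-null cells. The groups did not overlap, and the difference was 3.99-fold (log2 fold change -2.0, SE 0.28, adjusted p = 0.000186).

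Hbq1b, a theta-globin gene, was at 1.76, 1.39, 1.83, 0.581 and 1.18 CPM in WT and at 0.529, 0.351, 0.223, 0 and 0.205 CPM in Abcb10-null cells at day 0. The lowest WT and the highest Abcb10-null library nearly met (log2 fold change -2.31, SE 0.48, adjusted p = 0.000955). At day 2 it was at 13, 9.81, 13, 13.2 and 14 CPM in WT and at 5.84, 2.97, 5.35, 2.80 and 4.92 CPM in Abcb10-null cells. It was 2.97-fold lower there (log2 fold change -1.57, SE 0.23, adjusted p = 0.00161). At day 5 it was at 53.1, 48.7, 63.2, 62.3 and 38.7 CPM in WT and at 26.1, 20.4, 16.5, 15.3 and 13.3 CPM in Abcb10-null cells. The groups stood clear of each other, with a 2.92-fold difference (log2 fold change -1.55, SE 0.20, adjusted p = 8.79e-05).

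Hbq1a, the other theta-globin gene, was at 8.31, 8.37, 7.88, 8.61 and 5.54 CPM in WT at day 5 and at 1.33, 0.623, 0.226, 0.934 and 0.463 CPM in Abcb10-null cells. All Abcb10-null libraries were far below WT, with a fitted difference of 10.95-fold (log2 fold change -3.45, SE 0.38, 95% interval -4.27 to -2.64, adjusted p = 3.15e-05). Hbq1a passed the filter at day 5 through WT only, so it was not free to go either way, while Hbq1b passed in both genotypes. The interval of Hbq1b at day 5 was -1.97 to -1.13, and the difference between the 2 genes was not tested. At day 2 Hbq1a was not tested, with 65 counts in WT and 3 in Abcb10-null cells, all of the latter in replicate 3. The ratio of WT to Abcb10-null was 24.4, with an exact 95% interval of 7.98 to 121 that covers counting error only. At day 0 it had 13 WT and 2 Abcb10-null counts, with a ratio of 7.54 (1.71 to 68.9).

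**Figure D2:**
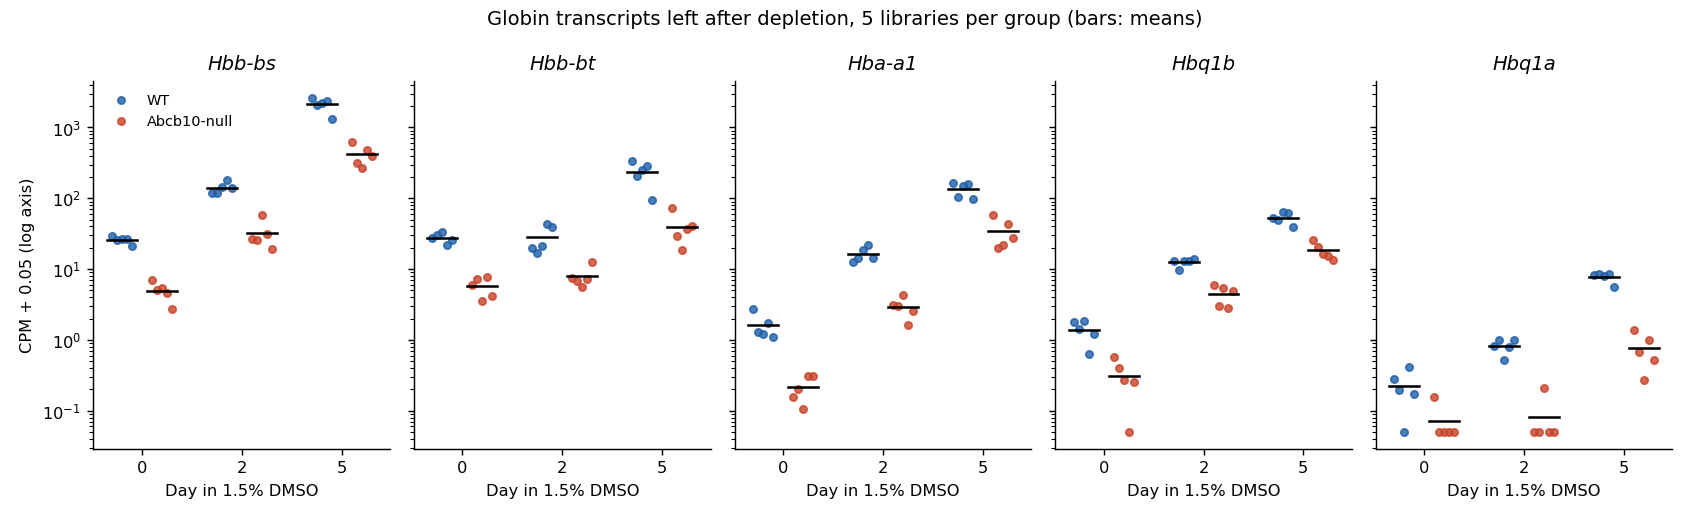
CPM plus 0.05, on a log axis, of the 5 globin genes that passed the filter on low counts in any comparison, by day in 1.5% DMSO, with each point a library (5 per group), WT in blue, Abcb10-null in red and black bars at the group means. In every panel the red points lie below the blue ones of the same day except for Hbq1a at day 0. From day 0 to day 2 the group means of Hbb-bt change less than those of Hbb-bs, Hba-a1 and Hbq1b, which climb.

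**Figure D3:**
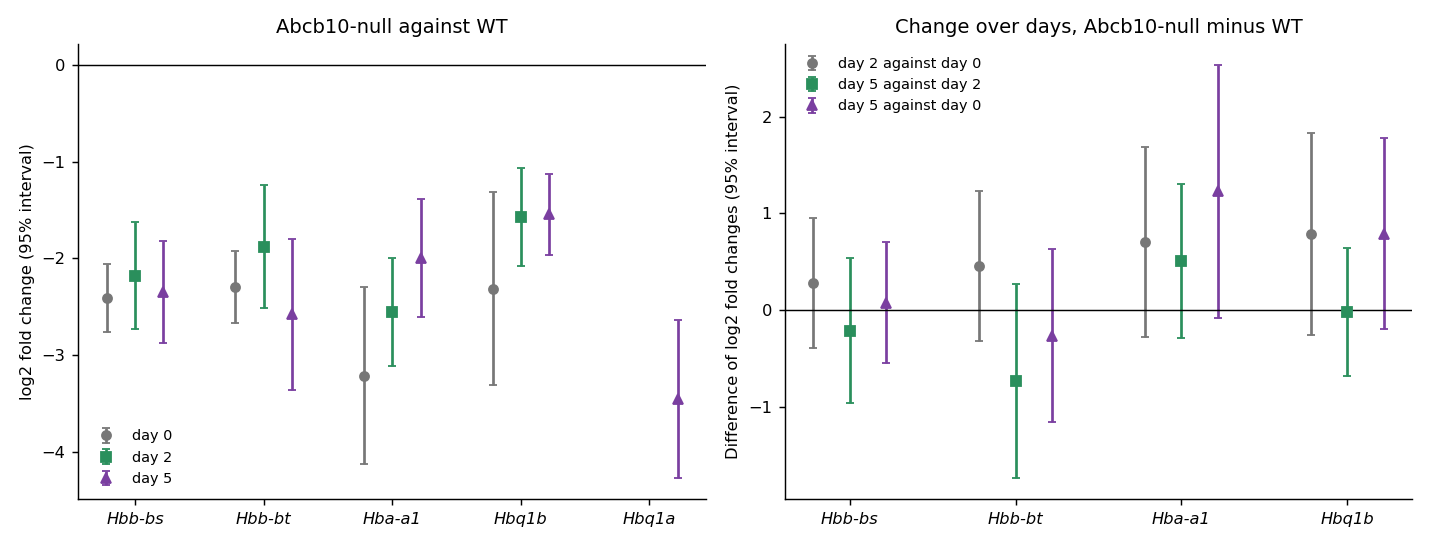
Left, log2 fold changes of Abcb10-null against WT at days 0, 2 and 5 with 95% intervals; right, the difference between the Abcb10-null and WT changes over days with 95% intervals, both from edgeR. Every interval on the left lies below 0, and every interval on the right spans 0. Hbq1a is shown at day 5 alone on the left and is left out on the right.

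From day 0 to day 5 in DMSO, Hbb-bs, Hbb-bt, Hba-a1 and Hbq1b rose in both genotypes and Hbq1a rose in WT; Hbq1a was not tested over days in Abcb10-null cells. In WT from day 0 to day 2, 3 of 4 tested globin genes were called higher, where 31.5% of all genes were. From day 2 to day 5 all 5 tested were called higher (17% of all genes), and from day 0 to day 5 all 5 (36.5% of all genes). In Abcb10-null cells the counts were 3 of 4 from day 0 to day 2 (23.1% of all genes), 4 of 4 from day 2 to day 5 (14.4%) and 4 of 4 from day 0 to day 5 (33.9%). In Abcb10-null cells Hba-a1 and Hbq1b passed the filter against day 0 through the later day only, and in WT the earlier libraries of Hbq1b against day 0, and of Hbq1a in both of its comparisons, would not have passed by themselves. The day 0 libraries serve in both comparisons against day 0, and the day 2 libraries in 2 of the 3.

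From day 0 to day 5 the log2 fold change of Hbb-bs was 6.35 (SE 0.20, adjusted p = 8.36e-11) in WT and 6.42 (SE 0.27, adjusted p = 1.54e-11) in Abcb10-null cells. Hba-a1 rose by 6.42 (SE 0.26) in WT and 7.65 (SE 0.42) in Abcb10-null cells on the log2 scale, and Hbq1b by 5.27 (SE 0.25) and 6.05 (SE 0.35). Hbq1a rose by 5.47 (SE 0.42) in WT from 13 counts at day 0. Hbb-bt rose least, by 3.08 (SE 0.27) in WT and 2.81 (SE 0.31) in Abcb10-null cells. All of these passed the test, with the highest adjusted p, 7.30e-07, for Hbb-bt in Abcb10-null cells. Hbb-bs and Hbb-bt in both genotypes, and Hba-a1 in WT, passed the filter on low counts at both days. Only these were free to go either way.

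Hbb-bt differed from Hbb-bs, Hba-a1 and Hbq1b in when it rose. From day 0 to day 2 its log2 fold change was 0.019 in WT (SE 0.24, 95% interval -0.51 to 0.55, adjusted p = 0.952) and 0.50 in Abcb10-null cells (SE 0.27, -0.075 to 1.07, adjusted p = 0.148). Over the same days Hbb-bs rose by 2.44 (SE 0.13) in WT and by 2.73 (SE 0.31) in Abcb10-null cells. From day 2 to day 5 Hbb-bt rose by 3.06 (SE 0.36) in WT and 2.33 (SE 0.32) in Abcb10-null cells, and Hbb-bs by 3.92 (SE 0.21) and 3.71 (SE 0.31). When the counts of the pair were summed, the pair rose from day 0 to day 2 in both genotypes (log2 fold change 1.65 in WT and 1.94 in Abcb10-null cells).

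The ratio of Hbb-bt to Hbb-bs counts within a library is free of library size. In the WT libraries 1 to 5 it was 0.961, 1.14, 1.25, 0.809 and 1.20 at day 0, then 0.164, 0.143, 0.148, 0.239 and 0.280 at day 2, and 0.127, 0.0977, 0.112, 0.122 and 0.0735 at day 5. In the Abcb10-null libraries it was 0.863, 1.44, 0.646, 1.71 and 1.51, then 0.281, 0.260, 0.0954, 0.230 and 0.658, and 0.115, 0.0930, 0.0703, 0.0756 and 0.101. Before DMSO the ratio thus lay on both sides of 1 in both genotypes, and Hbb-bs had more counts than Hbb-bt in every library with DMSO. These are counts left after globin removal, and reads shared by the 2 genes may not have been counted. The ratio need not be that of the cells' transcripts. At day 2, Abcb10-null replicates 3 and 5 lay on either side of all other libraries of that day.

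Between genotypes the log2 ratio of Hbb-bt to Hbb-bs differed by 0.13, 0.44 and -0.22 at days 0, 2 and 5 (Abcb10-null minus WT), less than the spread between libraries in at least 1 genotype (SD 0.60, 0.99 and 0.29 in Abcb10-null cells). The exact two-sided permutation p was 0.667, 0.405 and 0.270, and 0.667, 0.506 and 0.450 after adjustment over 5 ratio tests. The day 2 difference was 0.096 without Abcb10-null replicate 5 and 0.79 without Abcb10-null replicate 3. The log2 ratio of adult alpha to adult beta counts was -3.80 ± 0.48 in Abcb10-null cells and -3.36 ± 0.20 in WT at day 2, and -3.80 ± 0.24 and -4.11 ± 0.23 at day 5 (SD, n = 5). The difference was thus -0.44 at day 2 and 0.31 at day 5, and neither passed (exact permutation p = 0.0714 for both, adjusted p = 0.179).

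**Figure D4:**
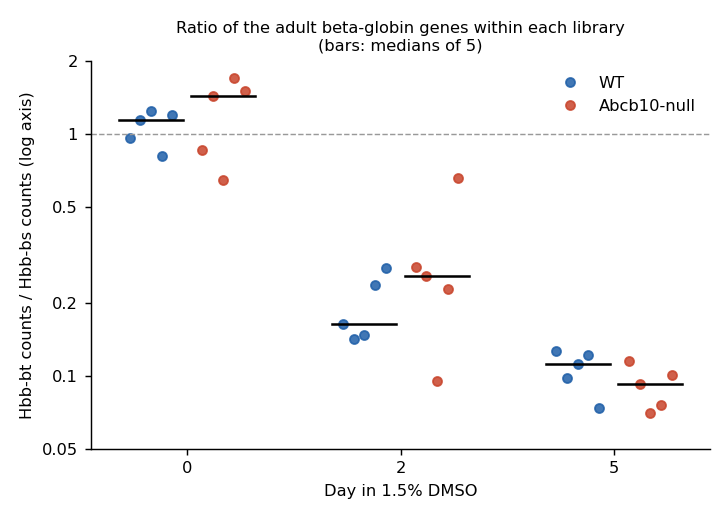
Ratio of Hbb-bt to Hbb-bs counts in each library, on a log axis, by day in 1.5% DMSO, WT in blue and Abcb10-null in red, with bars at the medians of 5 libraries and a dashed line at a ratio of 1. The medians fall from 1.14 to 0.164 to 0.112 in WT and from 1.44 to 0.260 to 0.0930 in Abcb10-null cells, and the genotypes overlap at each day.

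The change over days was compared between genotypes as an interaction of genotype and day. In edgeR, 0 of 4 tested globin genes were called for day 2 against day 0, 0 of 5 for day 5 against day 2 and 0 of 5 for day 5 against day 0, where 22.8%, 4.71% and 31.5% of all genes were called. None had an unadjusted p under 0.05 in these fits, and DESeq2 called none either. For Hbb-bs the difference between the changes from day 0 to day 5 was 0.078 on the log2 scale, with a 95% interval of -0.55 to 0.70. For Hbb-bt it was -0.26 (-1.16 to 0.63), for Hbq1b 0.79 (-0.20 to 1.78) and for Hba-a1 1.23 (-0.079 to 2.54, adjusted p = 0.148). Leaving out 1 library, the Hbb-bt value ran from -0.61 without Abcb10-null day 5 replicate 1 to -0.089 without Abcb10-null day 5 replicate 3, and that of Hbq1b from 0.52 without Abcb10-null day 0 replicate 4 to 1.18 without Abcb10-null day 0 replicate 1. The Hba-a1 value rests on the 15 counts of the Abcb10-null day 0 libraries, and it was called when no filter on low counts was used (adjusted p = 0.00789) and when the replicate number was a block (adjusted p = 0.0496), though the numbers did not pair the libraries. Its adjusted p ran up to 0.284 over the other alternatives. Each of these 4 intervals reaches past 0.5 on the log2 scale, so a like change in both genotypes is not shown by them. For Hbq1a the value for day 5 against day 0 was -0.88 (-5.73 to 3.96). It rests on 2 counts in the Abcb10-null day 0 libraries, so the test could say little about this gene.

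Hba-a2, the adult alpha gene that is nearly the same as Hba-a1 in its coding bases, had 22 counts over all 30 libraries against 13150 for Hba-a1. It had none at day 0 in either genotype, and only WT day 5 replicate 1, with 10 counts, was over the floor. At day 5 it had 16 WT and 4 Abcb10-null counts, with a ratio of 4.31 (exact 95% interval 1.39 to 17.7, counting error only). Its transcript had 67 unique windows against 212 for Hba-a1, and each had 49 within the coding sequence. Of the 212, the 161 nearest the 5′ end start in bases that lie upstream of the RefSeq start of Hba-a1. Past that start Hba-a1 kept only its unique windows 527 to 577, fewer than the 67 of Hba-a2. From the annotated start, the gap in counts was thus far wider than the gap in unique windows. From the RefSeq start, the gaps ran in opposite directions. Whether the kit, or the handling of reads with several matches, left fewer counts on Hba-a2 than on Hba-a1 was not tested.

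The embryonic genes, whose transcripts shared no exact read-length window with another gene, were near the floor. How alike their transcripts are to those of other genes short of an exact match was not tested. Hba-x had 13 counts over the 30 libraries, Hbb-y 21 and Hbb-bh1 38, and they were over the floor in 1, 2 and 3 libraries. At day 5 Hbb-bh1 had 18 WT and 12 Abcb10-null counts, with a ratio of 1.62 (0.736 to 3.68). Hbb-y had 8 and 9, a ratio of 0.957 (0.321 to 2.80), and Hba-x 7 and 6, a ratio of 1.26 (0.362 to 4.53). No difference between genotypes was detectable at this depth.

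The embryonic counts lay mostly in the libraries with many genes detected. Abcb10-null day 5 replicate 4, with 36511 genes, held 18 of the 27 embryonic counts of its group, among them all 9 of Hbb-y. WT day 5 replicate 3, with 29986 genes, held 13 of 33, and WT day 5 replicate 2, with 25916 genes, held 12. The 20 libraries of days 0 and 2 had at most 3 each. Whether the number of genes detected had a part in the embryonic counts was not tested. Of the other globin genes and pseudogenes of the annotation, Hbb-bh0 had 4 counts and Hbb-bh2 had 2 over all libraries, and Hbb-bh3, Hba-ps3 and Hba-ps4 had 0.

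Replicate libraries differed more for Hbb-bs, Hbb-bt, Hba-a1 and Hbq1b than for most genes of like mean CPM over the 30 libraries, but not for Hbq1a. The pooled SD within groups, on the log2 CPM scale, was 0.42 for Hbb-bs, 0.55 for Hbb-bt, 0.48 for Hba-a1 and 0.53 for Hbq1b, larger than in 95.4%, 98.5%, 96.0% and 95.5% of the genes of like level. For Hbq1a it was 0.55, larger than in 34.6%. Although level was the mean over all libraries, Hba-a1 had 1 to 5 counts per Abcb10-null day 0 library and Hbq1b 0 to 10. Counting error at such low counts adds to their pooled SD, and how much it added was not tested. WT day 5 replicate 5 was the lowest of its group for all 5 of these genes, and also for Alas2, the erythroid heme synthesis enzyme (4062 CPM against 5427 to 7218). Abcb10-null day 5 replicate 1 was the highest of its group for all 5 and for Alas2 (3159 CPM against 1979 to 2434). The 5 genes were called lower in Abcb10-null cells at day 5 when either library was left out.

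The levels of the 5 genes followed each other across the 30 libraries, which share the 6 groups, so these correlations are a description. Among 12151 genes with a mean of at least 1 CPM, the genes most like Hbb-bs in log2 CPM were Hba-a1 (Pearson r = 0.98), Alas2 (0.98) and Ptp4a3 (0.96). Hba-a1 was most like Hbb-bs (0.98), Hbq1b (0.96) and Alas2 (0.96), and Hbq1b most like Hba-a1 (0.96), Tmod1, which caps actin filaments in the red cell membrane skeleton (0.96), and Slc22a4 (0.96). Hbq1a was most like Stk11 (0.95), Kel, which carries the Kell blood group (0.95), and Grap2 (0.94). Hbb-bt stood somewhat apart, with Snx15 (0.91), Hbq1a (0.91) and Hsd3b1 (0.90). Within groups, as deviations from group means, the members followed each other less: r was 0.61 for Hbq1a and Hbb-bs, 0.43 for Hba-a1 and Hbb-bs, 0.41 for Hbb-bs and Hbb-bt, and 0.084 for Hba-a1 and Hbq1b.

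Of 20 genes listed for their known part in globin control or in matching globin to heme, 19 were analysed here, and all 19 were tested in each comparison. Before DMSO the 95% intervals of the Gata1 and Klf1 differences spanned 0, while other listed genes were called. Whether any of the 19 had a part in the lower globin levels was not tested. At day 0, 4 of the 19 were higher in Abcb10-null cells (19.7% of all genes) and 3 lower (16.2%). At day 2, 2 were higher (14.9% of all genes) and 6 lower (16.9%), and at day 5, 2 were higher (19.8%) and 9 lower (17.8%). Their median log2 fold change was 0.072, -0.069 and -0.40 at days 0, 2 and 5, against -0.0019, -0.0022 and -0.016 over all genes.

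Gata1, a master regulator of red cell genes, at day 0 averaged 260 ± 21.6 CPM in the WT libraries and 262 ± 17 in the Abcb10-null ones (log2 fold change 0.0039, 95% interval -0.14 to 0.15). It was lower in Abcb10-null cells at day 5 (log2 fold change -0.68, SE 0.12, adjusted p = 0.000947). Klf1, which activates the adult beta-globin genes, averaged 335 ± 26.7 and 339 ± 26.9 CPM at day 0 (log2 fold change 0.010, -0.13 to 0.15). It was lower at day 2 (log2 fold change -0.82, SE 0.16, adjusted p = 0.00489) and day 5 (-1.49, SE 0.12, adjusted p = 2.64e-06). Nfe2, which binds the beta-globin enhancers, had a log2 fold change of 0.12 at day 0 (adjusted p = 0.276) and was lower at day 5 (-1.01, SE 0.12, adjusted p = 6.49e-05).

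Myb, a factor of dividing progenitors that falls as red cells mature, was higher in Abcb10-null cells at each day, with log2 fold changes of 0.61 (SE 0.060), 1.79 (SE 0.25) and 2.13 (SE 0.27) at days 0, 2 and 5 (adjusted p = 2.82e-07, 0.00107 and 8.94e-05). Sox6 was higher at day 0 (0.75, SE 0.11, adjusted p = 3.62e-05) and lower at day 2 (-1.20, SE 0.31, adjusted p = 0.0120) and day 5 (-2.35, SE 0.34, adjusted p = 0.000216). At day 2 WT replicates 1 and 2 stood apart, with Sox6 at 41.6 and 39.3 CPM, while WT replicates 3 to 5 lay between 15.7 and 18 CPM and met the 9.36 to 16.2 CPM of Abcb10-null cells. The same pair had less Myb than the other WT libraries (23.2 and 24.3 CPM, and 47.2 to 57.2 there). Leaving out 1 of the pair, the Sox6 log2 fold change at day 2 was -0.97 or -1.0 (adjusted p = 0.0343 and 0.0351), and leaving out both was not tested. Bcl11a did not pass the test at any day (log2 fold change 0.16, -0.57 and -0.58, adjusted p = 0.274, 0.129 and 0.203).

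Eif2ak1 encodes HRI, the kinase that slows globin translation when heme is short. It was lower in Abcb10-null cells at each day, with log2 fold changes of -0.32 (SE 0.12), -1.05 (SE 0.19) and -1.02 (SE 0.30), and adjusted p of 0.0384, 0.00328 and 0.0164. At day 5 it was at 149.8 CPM in WT replicate 2, while the other 4 WT replicates lay between 51.2 and 74.4 and Abcb10-null cells between 25.8 and 53.4. Leaving WT replicate 2 out gave a log2 fold change of -0.64 (adjusted p = 0.0180). Bach1, a heme-sensitive repressor known to act on globin enhancers, did not pass at any day (log2 fold change 0.12, 0.17 and 0.25, adjusted p = 0.192, 0.496 and 0.0617). The interaction of genotype and day was called for 6 of the 19 listed genes for day 2 against day 0 (22.8% of all genes), 4 for day 5 against day 2 (4.71%) and 9 for day 5 against day 0 (31.5%). Klf1 was among them for day 2 and for day 5 against day 0, its change being lower in Abcb10-null cells.

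**Figure D5:**
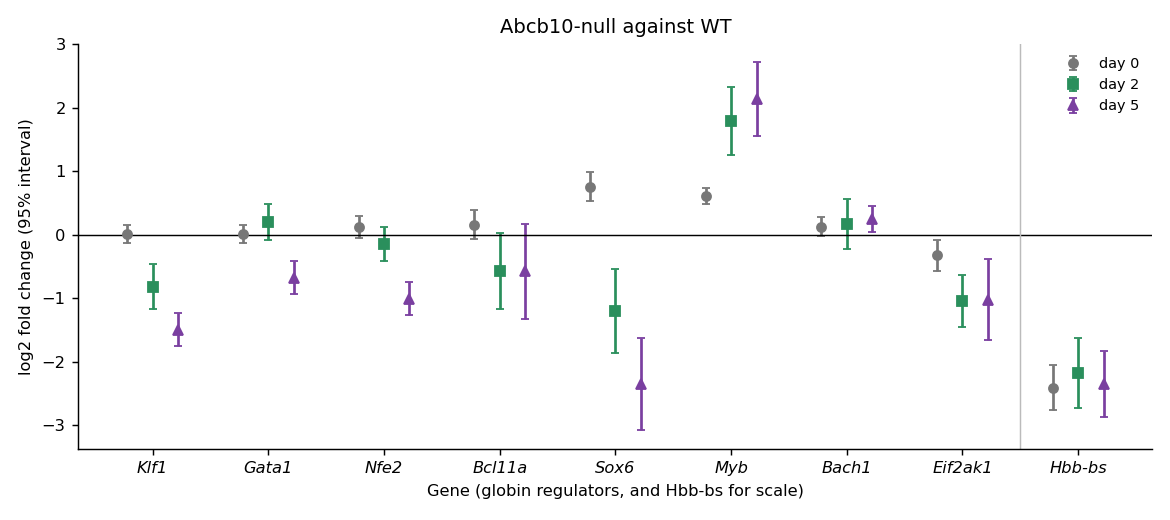
log2 fold changes of Abcb10-null against WT with 95% intervals at days 0, 2 and 5 for 8 genes of globin control, and for Hbb-bs at the right for scale. At day 0 the intervals of Klf1 and Gata1 span 0, those of Myb and Sox6 lie above 0 and that of Eif2ak1 lies below 0. That of Hbb-bs lies near -2.41 at day 0. At day 5 the intervals of Klf1 and Gata1 lie below 0.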

How the data were processed

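RNA of 30 MEL libraries, 5 for each genotype and day by their titles, was depleted of ribosomal and globin RNA by the authors, made into stranded libraries and sequenced as pairs of 51-base reads. The authors trimmed adapters with cutadapt 1.16, aligned to GRCm38 with STAR 2.6.1b and Ensembl release 94, and deposited raw counts per gene from featureCounts 1.6.3. Its settings for strand and for reads with several matches are not given in the sources used here.

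Symbols, exons and transcripts came from GENCODE M21 (GRCm38). 123 gene identifiers, with 0.0304% of the counts, were not in it and kept no symbol. Differences across genes were fitted in edgeR 4.0.16 under R 4.3.3 (TMM, filterByExpr, glmQLFit, glmQLFTest, Benjamini-Hochberg adjusted p under 0.05), each comparison on its own libraries, 10 for 2 groups and 20 for an interaction. Shares and ratios (log2, 0.5 counts added) were compared by exact permutation with SciPy 1.17.1. Alternatives were DESeq2 1.42.0, its size factors, all genes with at least 1 count, library sizes without 6135 globin, mitochondria-encoded and small RNA genes, all 30 libraries in one fit, a replicate block, copies summed (Hba-a1 with Hba-a2, Hbb-bs with Hbb-bt, Hbq1a with Hbq1b) each library left out and, chosen after seeing the data, the 5 day 5 libraries with over 25000 genes left out together.

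On simulated counts for the day 5 genotype comparison, 77 of 85 genes changed by 1 on the log2 scale, 90 of 90 changed by 2 and 5 of 12938 unchanged genes were called. For the interaction of day 2 against day 0 it was 35 of 88, 81 of 90 and 8 of 13554. The simulation gave all genes the same spread between libraries beyond counting error. These rates may thus not hold for Hbb-bs, Hbb-bt, Hba-a1 and Hbq1b, which varied more between replicates than most genes of like mean level. The members, gene lists and tests were chosen with earlier results of these data known. Named genes were the 9 members, the 3 genes most like each tested member, 9 of the 20 listed control genes (8 analysed here) and Abcb10. p-values measure the spread between libraries, and nothing in the labels says that replicates came from separate cultures beyond calling them biological. Intervals on counts cover counting error only.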

Additional observations from a re-analysis of the deposited data

Results flagged for a closer look

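Of 34 sets of 5 libraries examined, 3 held a library whose gap to the nearest of the others was over 0.71 of the range of its set (Dixon's 95% limit for 5), where chance flags about 1 in 20. Hbq1a was at 5.54 CPM in WT day 5 replicate 5, against 7.88 to 8.61 in the other 4. Hbq1b was at 9.81 CPM in WT day 2 replicate 2, against 13 to 14. The 9 globin genes took 0.00721% of the counts of Abcb10-null day 2 replicate 3, against 0.00398% to 0.00427%. Without these libraries the comparisons between genotypes they enter were called as before.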

How the results depend on the processing

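The lower globin levels in Abcb10-null cells kept their direction and their call under every alternative for each gene tested. With the copies summed the 6 genes of the 3 pairs become 3 features, and all 3 were called lower at day 5 and higher in WT for day 5 against day 2 and against day 0. The interaction for day 5 against day 0 called 1 gene, Hba-a1, with all genes with at least 1 count (1.23) and with the replicate block (1.10), and no other count of globin calls moved with the block. The replicate numbers did not pair the libraries: over 75 pairs with the same number the correlation of deviations from group means had a median of -0.0145, and 8 were over 0.1. For Hbb-bt in WT, day 2 against day 0, the value turned to -0.075 with the block and ran from -0.19 to 0.19 with 1 library left out. Differences between genotypes in the change over days also turned in sign without being called: Hbq1b, day 5 against day 2, 0.020 with all genes with at least 1 count, 0.40 without the 5 day 5 libraries with over 25000 genes, an alternative chosen after seeing the data, and -0.14 to 0.13 leaving out 1 library; Hbq1a, whose copies summed gave -0.084 for day 5 against day 2 and 0.70 for day 5 against day 0, and up to 1.00 without Abcb10-null day 0 replicate 1, which holds both of the counts of its group (lowest -1.29); and Hbb-bs, -0.0046 with the copies summed for day 5 against day 0. Leaving out 1 library, Hbb-bs ran from -0.086 to 0.42 for day 2 against day 0 and from -0.38 to 0.15 for day 5 against day 2, the turns coming without Abcb10-null day 2 replicate 3, and from -0.12 to 0.24 for day 5 against day 0. The day 0 difference in the ratio of Hbb-bt to Hbb-bs ran from -0.016 to 0.33.

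Over all genes, calls between genotypes at day 0 numbered 1584 with all 30 libraries in one fit (4642 here), and at day 2 they ran from 2665 to 5357 leaving out 1 library (4151 here), the low values coming without Abcb10-null replicate 1 (2665) or WT replicate 2 (2744). For the interaction of day 5 against day 2 there were 1267 with DESeq2, 1705 with all libraries in one fit and 275 to 1352 leaving out 1 library (657 here), so that background depends on the libraries. Leaving out together the 5 day 5 libraries with over 25000 genes left 1006 calls between genotypes at day 5 (4769 here), 1922 for day 5 against day 2 in WT (4351 here), 2530 in Abcb10-null cells (3968 here) and 3 for the interaction of day 5 against day 2. Depth limits Hba-a1, Hbq1a and Hbq1b at day 0 and the embryonic genes throughout.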
